A study of Mus musculus with 9 samples.

Results

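10 genes of the blood and lymph vessel wall were followed in the mouse colon: the endothelial selectins *Sele* and *Selp*, the adhesion molecules *Icam1*, *Vcam1* and *Madcam1*, the vessel markers *Pecam1*, *Cdh5*, *Vwf* and *Ackr1*, and the lymphatic marker *Lyve1*. They were chosen by name, and all 10 were found among the 27719 genes of the count table, each on a single line. The study asked how electroacupuncture (EA), which is electrical stimulation through acupuncture needles, changes experimental colitis. All mice were of the C57BL/6J strain, and their age and sex are not given in the sources used here. Dextran sodium sulfate (DSS), a polymer that injures the colonic epithelium, was given at 2.5% in the drinking water for 7 days to the DSS group and the DSS + EA group, while the control group drank distilled water. The DSS + EA group also had daily EA sessions of 30 minutes (2 Hz, 0.2 mA) at ST36 on both sides, 5 days in all, beginning after 5 days of modelling, and control and DSS mice were held in the frame for the same time without current. Each group held 3 mice, with 1 library of colon RNA per mouse. RNA came from colon tissue and not from sorted vessel cells, so that each value is an average over all cells of the sample.

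Leukocytes leave the blood in steps that these genes serve. Selectins on activated endothelium catch rolling cells, the immunoglobulin-family molecules ICAM-1, VCAM-1 and MAdCAM-1 then hold them through leukocyte integrins, and the cells pass between endothelial cells at junctions built with PECAM-1 and VE-cadherin. In the gut, MAdCAM-1 marks the venules at which lymphocytes with the integrin alpha4beta7 enter the mucosa, and inflammatory cytokines are known to raise selectins, ICAM-1 and VCAM-1 on endothelium. All 10 are annotated as protein-coding in GENCODE M21 (genome build GRCm38). The selectin genes lie together on the plus strand of chromosome 1, with *Sele* at chr1:164048234-164057677 and *Selp* at chr1:164115264-164150026. *Ackr1* is on the minus strand of the same chromosome at chr1:173331886-173333750. The adhesion molecule genes are spread over the genome, *Icam1* at chr9:21015985-21028817 (plus strand), *Vcam1* at chr3:116109949-116129688 (minus strand) and *Madcam1* at chr10:79664559-79668537 (plus strand). *Pecam1* is at chr11:106654217-106750628 (minus strand), *Cdh5* at chr8:104101625-104144511 (plus strand), *Vwf* at chr6:125546774-125686679 (plus strand) and *Lyve1* at chr7:110850607-110863239 (minus strand).

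Promoter windows of RefSeq (build GRCm38.p6), each running from 250 bases before to 50 bases after the annotated start, were matched by symbol for 5 of the 10 genes: *Sele*, *Selp*, *Icam1*, *Madcam1* and *Ackr1*. The windows of the inducible adhesion genes are shown, and that of *Ackr1* is not. These adhesion genes were higher in DSS than in control mice, but they differed in their fall in DSS + EA mice. Whether the windows bear on the counts was not tested. All 4 are on the plus strand and are written 5′ to 3′, at chr1:164115014-164115313 for *Selp*, chr1:164047984-164048283 for *Sele*, chr9:21015690-21015989 for *Icam1* and chr10:79664309-79664608 for *Madcam1*. Capitals mark matches, on either strand, to 4 short patterns that are described after the sequences.
Selp: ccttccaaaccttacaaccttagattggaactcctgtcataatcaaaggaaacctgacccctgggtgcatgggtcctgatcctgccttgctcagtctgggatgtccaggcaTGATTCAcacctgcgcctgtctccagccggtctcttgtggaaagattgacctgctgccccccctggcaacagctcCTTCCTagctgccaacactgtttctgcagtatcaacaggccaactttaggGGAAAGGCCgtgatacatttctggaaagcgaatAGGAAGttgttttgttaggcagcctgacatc
Sele: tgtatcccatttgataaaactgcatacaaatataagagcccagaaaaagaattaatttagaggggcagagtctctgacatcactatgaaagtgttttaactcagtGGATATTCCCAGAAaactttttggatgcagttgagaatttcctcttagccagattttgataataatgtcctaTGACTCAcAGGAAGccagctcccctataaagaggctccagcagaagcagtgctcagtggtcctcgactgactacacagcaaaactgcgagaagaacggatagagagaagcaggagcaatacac
Icam1: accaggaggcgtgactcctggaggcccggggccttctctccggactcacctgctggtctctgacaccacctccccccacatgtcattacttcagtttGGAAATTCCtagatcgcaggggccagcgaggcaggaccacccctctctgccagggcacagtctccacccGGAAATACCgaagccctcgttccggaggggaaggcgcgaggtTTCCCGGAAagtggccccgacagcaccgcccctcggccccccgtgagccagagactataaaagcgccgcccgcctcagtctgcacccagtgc
Madcam1: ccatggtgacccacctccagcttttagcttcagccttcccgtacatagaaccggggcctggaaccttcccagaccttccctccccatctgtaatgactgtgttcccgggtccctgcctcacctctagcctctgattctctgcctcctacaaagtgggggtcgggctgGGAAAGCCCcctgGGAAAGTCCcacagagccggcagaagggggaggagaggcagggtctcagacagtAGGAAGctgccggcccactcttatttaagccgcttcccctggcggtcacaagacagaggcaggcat

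The patterns were GGNNNTTCC (like a kappa B site), TGANTCA (like an AP-1 site), TTCNNNGAA (like a STAT site) and AGGAAG (like an ETS site), each searched on both strands of 32851 windows of the same length. GGNNNTTCC was present in all 5 windows of these genes and in 18.5% of all windows. On the strand of the gene alone it was present in 2 of the 5 and in 10.2% of all windows. In *Icam1* it matched at 2 places, GGAAATTCC from -153 to -145 and GGAAATACC from -84 to -76, counted with the annotated start as 0. *Madcam1* also held 2 matches, GGAAAGCCC from -83 to -75 and GGAAAGTCC from -70 to -62. In *Selp* the match GGAAAGGCC lay from -14 to -6, and in *Sele* GGATATTCC from -145 to -137 overlapped the STAT-like match TTCCCAGAA. TGANTCA was found in 2 of the 5 windows, those of *Sele* and *Selp*, and in 7.81% of all windows. TTCNNNGAA was found in 2 of the 5, those of *Sele* and *Icam1*, and in 8.30% of all windows. AGGAAG was found in 4 of the 5, *Icam1* being without it, and in 35.4% of all windows. A match of letters is a description of these windows and no binding was measured.

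The libraries held 2627695 to 4235576 counts each. Levels are given as CPM, counts scaled to a common library size with TMM factors, and on the unadjusted scale 3 counts were worth 0.708 to 1.14 CPM. Of 9 markers of colonic epithelium, which include *Epcam*, *Cdx2* and *Muc2*, all 9 had enough counts to be tested, and their summed level was 12865 to 29305 CPM in control mice, 2230 to 10446 in DSS mice and 10080 to 17309 in DSS + EA mice. Of 22 further endothelial genes, 19 had enough counts. 2 libraries stood apart: genes of the exocrine pancreas took 4.35% of the counts in DSS + EA mouse 2 (Wilson 95% interval 4.33 to 4.37) and 1.89% in mouse 3 (1.87 to 1.90), against 0.0545% in mouse 1 (0.0520 to 0.0570) and at most 0.0653% in a control mouse. Such intervals cover counting error only. Calls of the 10 genes and of the gene lists that rest on the DSS + EA group are therefore also given without those mice.

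Compared with the control group, the DSS group had more RNA of the vessel genes. Of the 10 genes, 9 had enough counts to be tested, and all 9 were called higher in DSS mice by edgeR's quasi-likelihood test with Benjamini-Hochberg adjustment (adjusted p under 0.05), where 40.9% of the 12566 genes tested were called in either direction and 21.5% were called higher. *Selp* passed the count filter through DSS mice, since outside them it reached the filter level in 2 libraries of the 3 needed. The rise was steepest for *Selp*, *Icam1*, *Vcam1* and *Madcam1*, by log2 fold changes of 3.01 to 6.94, and lay between 1.66 and 2.44 for the vessel markers. The thresholds of the study (P under 0.01 and an absolute log2 fold change over 2.5) were applied here to the edgeR fit, whereas the study used DESeq2. By them those 4 adhesion genes were DEGs, against 6.62% of genes tested that were higher at these thresholds. No DSS mouse overlapped a control mouse for any of the 9 genes tested, where 26.1% of the genes tested were higher without overlap. *Sele*, which was not tested, did not overlap either, but by a single count in DSS mouse 3. In tissue RNA of this kind, fewer cells of a type and less RNA per cell cannot be told apart.

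*Selp* encodes P-selectin, which is stored in endothelial and platelet granules and also made anew in inflammation. It had 3, 0 and 1 counts in control mice 1, 2 and 3, 98, 481 and 95 in DSS mice, and 15, 11 and 9 in DSS + EA mice. The groups did not overlap, and DSS mouse 2 stood above the other 2 mice of its group. As levels, this was 0.379 ± 0.378 CPM (SD, n = 3) in control, 54.8 ± 42.4 in DSS and 3.81 ± 0.879 in DSS + EA mice. With 674 counts in the DSS group against 4 in the control group, the ratio of levels was 147, with an interval of 57.3 to 543 from counting error alone. The edgeR fit gave a log2 fold change of 6.94 (SE 0.77, 95% interval 5.22 to 8.66, adjusted p = 0.000184). The log2 fold change was 6.09 without DSS mouse 2 and 7.98 without control mouse 1, the mouse with 3 of the 4 control counts. *Selp* was also called higher in each of the 10 other fits and in each of the 9 fits that left out 1 mouse.

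*Sele* encodes E-selectin, which is made by activated endothelium. It had no count in any control mouse, 6, 14 and 1 counts in DSS mice 1, 2 and 3, and 1, 1 and 0 in DSS + EA mice. Control and DSS mice did not overlap, although DSS mouse 3 held a single count. The 21 counts of the DSS group were at least 6.13-fold above the control group, for which a floor of 3 counts over the group was used. *Sele* was too low for the main test. When no count filter was used, edgeR's quasi-likelihood test gave an adjusted p of 0.0148 for DSS against control, and DESeq2 gave 0.0236.

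*Icam1* encodes the ligand of the beta2 integrins, and leukocytes and epithelium can make it too. Its counts were 7, 5 and 12 in control, 129, 331 and 308 in DSS, and 34, 27 and 30 in DSS + EA mice. Each DSS mouse was far above every other mouse, and DSS mouse 1 was the lowest of its group. Mean levels were 2.66 ± 1.65 CPM in control, 69.3 ± 27.2 in DSS and 9.90 ± 0.422 in DSS + EA mice (SD, n = 3 each), and DSS mice were 26.7-fold above control mice (log2 fold change 4.74, SE 0.44, edgeR adjusted p = 7.35e-05).

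*Vcam1* encodes the ligand of the integrin alpha4beta1. It had 26, 17 and 10 counts in control, 201, 247 and 224 in DSS, and 126, 73 and 115 in DSS + EA mice. The 3 groups formed 3 separate ranges with DSS + EA mice in the middle. DSS mice, at 62.3 ± 8.22 CPM, were 11.5-fold above control mice, at 5.32 ± 1.40 CPM (SD, n = 3 each; log2 fold change 3.52, SE 0.26, edgeR adjusted p = 2.90e-05).

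*Madcam1* encodes the gut venule address for alpha4beta7 lymphocytes. Its counts were 8, 9 and 7 in control, 41, 112 and 79 in DSS, and 25, 27 and 28 in DSS + EA mice. Its groups were likewise ordered as control, DSS + EA and DSS without overlap. Levels rose 8.08-fold from 2.55 ± 0.486 CPM in control to 20.6 ± 6.48 CPM in DSS mice (SD, n = 3 each; log2 fold change 3.01, SE 0.34, edgeR adjusted p = 0.000187).

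**Figure D1:**
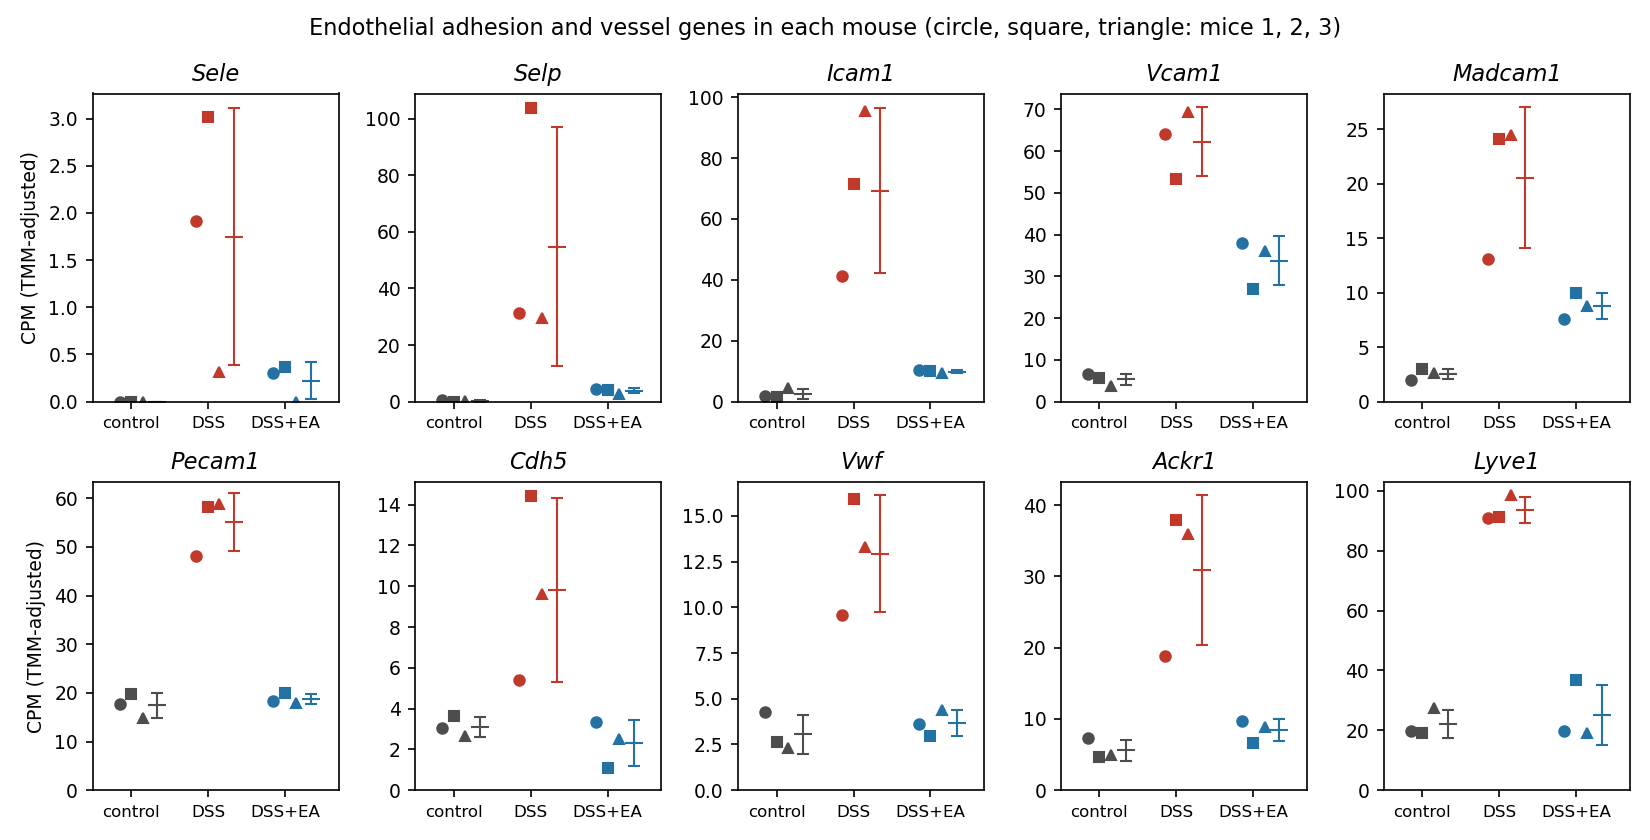
Level of each of the 10 genes (CPM adjusted by TMM, a linear axis of its own for each gene) in control, DSS and DSS + EA mice. Each point is a mouse and the bar beside the points is the mean with SD (n = 3); DSS mice lie above control mice for all 10 genes, and *Vcam1* of DSS + EA mice (27.0 to 38.0 CPM) lies between the other groups.

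The junction and vessel markers rose less. *Pecam1*, which encodes an adhesion molecule of endothelial junctions that platelets and leukocytes also carry, had 70, 60 and 39 counts in control, 151, 270 and 190 in DSS, and 61, 54 and 57 in DSS + EA mice. DSS mice were 3.15-fold above control mice (55.1 ± 5.97 against 17.4 ± 2.49 CPM, SD, n = 3 each; log2 fold change 1.66, SE 0.19, edgeR adjusted p = 0.000236). The control and DSS + EA mice of this gene overlapped.

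*Cdh5* encodes VE-cadherin, the cadherin of endothelial junctions. It was low, with 12, 11 and 7 counts in control, 17, 67 and 31 in DSS, and 11, 3 and 8 in DSS + EA mice. DSS mouse 2 was highest and DSS mouse 1 was close to the control mice. Its rise (log2 fold change 1.66, SE 0.44, edgeR adjusted p = 0.0138) was not called without control mouse 1, control mouse 3 or DSS mouse 2, where the adjusted p was 0.0514 to 0.0526, and it was 1.28 on the log2 scale without DSS mouse 2.

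*Vwf* encodes von Willebrand factor, which tethers platelets. It had 17, 8 and 6 counts in control, 30, 74 and 43 in DSS, and 12, 8 and 14 in DSS + EA mice, so that DSS mice did not overlap the others. The level was 4.11-fold higher in DSS than in control mice (12.9 ± 3.20 against 3.07 ± 1.07 CPM, SD, n = 3 each; log2 fold change 2.04, SE 0.34, edgeR adjusted p = 0.00139).

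*Ackr1* encodes a chemokine-binding receptor of venules that red cell precursors also carry. Its counts were 29, 14 and 13 in control, 59, 176 and 116 in DSS, and 32, 18 and 28 in DSS + EA mice. DSS mice again did not overlap the others, and DSS mouse 1 was the lowest of its group. The rise was 5.41-fold, from 5.62 ± 1.47 to 30.9 ± 10.5 CPM (SD, n = 3 each; log2 fold change 2.44, SE 0.33, edgeR adjusted p = 0.000498).

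*Lyve1* encodes a hyaluronan receptor of lymphatic endothelium that some tissue macrophages also carry. It had 79, 58 and 72 counts in control, 285, 424 and 319 in DSS, and 65, 99 and 61 in DSS + EA mice. The 3 DSS mice lay close together at 91.0 to 98.8 CPM, and control mice at 19.1 to 27.4 CPM. The difference was 4.24-fold (log2 fold change 2.08, SE 0.28, edgeR adjusted p = 0.000448).

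Compared with the DSS group, the DSS + EA group had less RNA of these genes. All 9 genes tested were called lower by edgeR's quasi-likelihood test with Benjamini-Hochberg adjustment, against 35.5% of all genes called in either direction and 18.3% called lower. *Selp* is counted among them although it passed the count filter through DSS mice, the group in which it was high. This comparison and that of DSS with control mice share the same 3 DSS mice, so that the directions are not independent of each other. *Selp* had the steepest fall, of 14.3-fold (log2 fold change -3.84, SE 0.58, 95% interval -5.13 to -2.55, edgeR adjusted p = 0.00139), and the log2 fold change was -2.99 without DSS mouse 2. *Icam1* was 6.98-fold lower (log2 fold change -2.80, SE 0.38, edgeR adjusted p = 0.000856). At the thresholds of the study these were the 2 DEGs among the genes, against 3.5% of genes tested that were lower at those thresholds. *Sele* overlapped between the groups: its 21 counts in DSS and 2 in DSS + EA mice gave a ratio of 8.77, with a counting interval of 2.14 to 77.1, and the edgeR fit with no count filter gave an adjusted p of 0.0827.

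*Vcam1* and *Madcam1* fell least. *Vcam1* was 1.84-fold lower (33.8 ± 5.89 against 62.3 ± 8.22 CPM, SD, n = 3 each; log2 fold change -0.88, SE 0.23, edgeR adjusted p = 0.0153), and this call was lost without DSS + EA mouse 2 (log2 fold change -0.71, edgeR adjusted p = 0.0714). *Madcam1* was 2.35-fold lower (8.79 ± 1.23 against 20.6 ± 6.48 CPM, SD, n = 3 each; log2 fold change -1.23, SE 0.29, edgeR adjusted p = 0.0106).

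The vessel markers lay between these extremes. *Pecam1* was 2.93-fold lower in DSS + EA than in DSS mice (edgeR adjusted p = 0.000651), *Vwf* 3.51-fold (0.00348), *Ackr1* 3.67-fold (0.00243), *Lyve1* 3.73-fold (0.00120) and *Cdh5* 4.16-fold (0.00799). No DSS + EA mouse overlapped a DSS mouse for any of the 9 tested genes, where 23.3% of all genes tested were lower without overlap. Removal of the 12 pancreatic genes from the table left all 9 called lower. With DSS + EA mouse 1 as the only mouse of its group, which assumes that it varies like the mice of the other groups, *Pecam1* (log2 fold change -1.56, edgeR adjusted p = 0.0451) and *Lyve1* (-2.24, 0.0196) were called lower, and the other 7 had log2 fold changes of -3.57 to -0.69 with adjusted p of 0.0532 to 0.266.

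Against the control group, the DSS + EA group differed in adhesion molecules and not detectably in vessel markers. *Vcam1*, *Madcam1* and *Icam1* were called higher, which is 3 of the 9 genes tested against 3% of all genes called higher and 3.64% called in either direction, and 0 were called lower by edgeR, against 0.637% of all genes. DESeq2 called 4 higher, *Selp* being the further gene, where it called 563 of 14880 genes higher. The groups did not overlap for *Selp*, *Icam1*, *Vcam1* and *Madcam1*, where 18% of all genes tested were higher without overlap, and at the thresholds of the study *Selp* and *Vcam1* were DEGs, against 1.74% of genes. *Vcam1* was 6.23-fold above control (log2 fold change 2.64, SE 0.26, 95% interval 2.06 to 3.22, edgeR adjusted p = 0.00180). It was called in all 10 other fits, the fit with DSS + EA mouse 1 alone included (log2 fold change 2.79, adjusted p = 0.0247), and in all 9 fits without 1 mouse. *Madcam1* was 3.44-fold above control (log2 fold change 1.78, SE 0.35, edgeR adjusted p = 0.0225), but was called in 4 of the 9 fits without 1 mouse, and not without control mouse 1, 2 or 3 or DSS + EA mouse 2 or 3 (adjusted p up to 0.136). *Icam1* was 3.83-fold above control (log2 fold change 1.94, SE 0.45, edgeR adjusted p = 0.0455). Its call stayed in 3 of those 9 fits and was lost without control mouse 1 or 2, DSS mouse 2 or any DSS + EA mouse (adjusted p up to 0.225). Of the 10 other fits, 7 called *Icam1*, and it was lost with library totals in place of TMM factors (edgeR adjusted p = 0.0584) and with a filter on a mean of at least 20 counts (0.0577). Neither gene was called with DSS + EA mouse 1 alone (adjusted p = 0.394 for *Icam1* and 0.400 for *Madcam1*).

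*Selp* remained above control in all 3 DSS + EA mice without overlap, but missed the threshold (log2 fold change 3.10, SE 0.92, 95% interval 1.05 to 5.15, edgeR adjusted p = 0.107). Its 35 counts against 4 gave a ratio of 9.17 with a counting interval of 3.28 to 35.5. Without control mouse 1 the log2 fold change was 4.13. DESeq2 called it (adjusted p = 0.0153), and so did edgeR without DSS mouse 2 (adjusted p = 0.0239). For the vessel markers the intervals of the log2 fold change against control included 0: -0.33 to 0.54 for *Pecam1*, -1.52 to 0.73 for *Cdh5*, -0.61 to 1.06 for *Vwf*, -0.21 to 1.33 for *Ackr1* and -0.43 to 0.80 for *Lyve1*. The edgeR adjusted p of these 5 genes lay between 0.460 and 0.836. The interval of *Pecam1* was the narrowest, and that of *Cdh5*, the gene with the fewest counts of the 5, the widest. The order of mean levels was thus control, DSS + EA and DSS for 9 of the genes, and DSS + EA, control and DSS for *Cdh5*, and the control and DSS + EA mice overlapped for the 5 vessel markers.

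**Figure D2:**
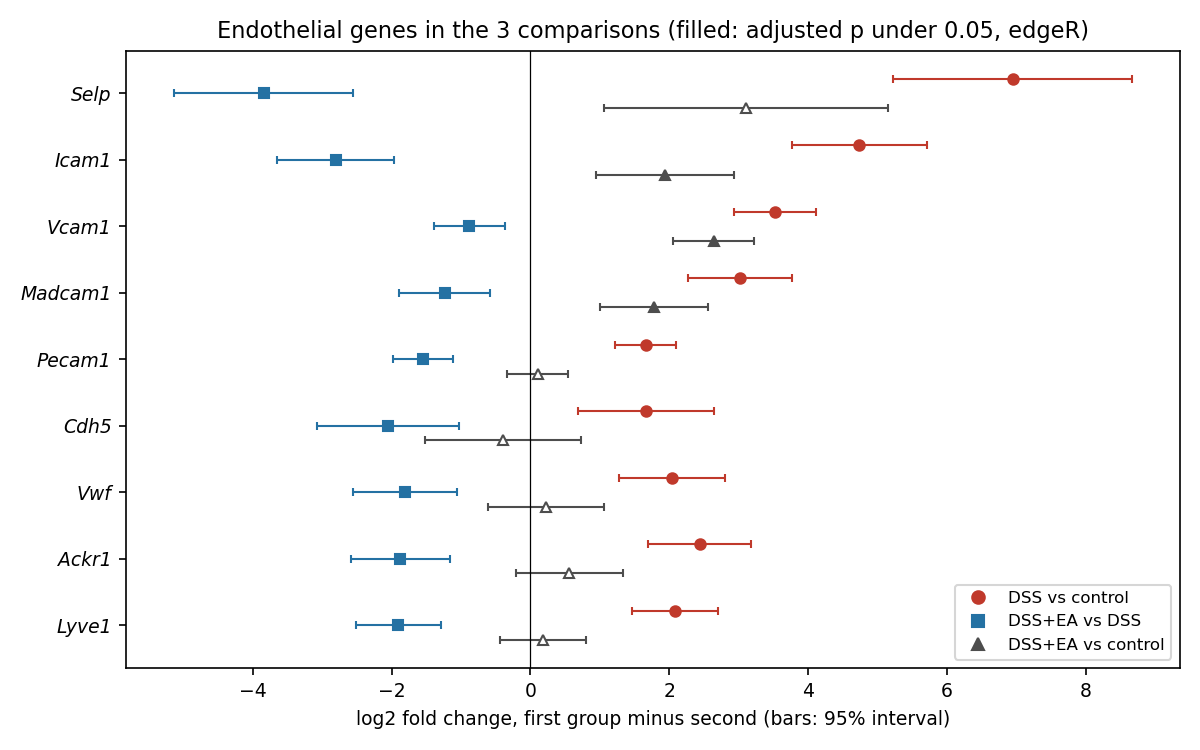
Log2 fold change with its 95% interval for the 9 genes tested, in DSS against control, DSS + EA against DSS and DSS + EA against control mice. Filled points passed an adjusted p of 0.05 in edgeR; against control, DSS + EA mice have filled points for *Icam1*, *Vcam1* and *Madcam1*, while the intervals of *Pecam1*, *Cdh5*, *Vwf*, *Ackr1* and *Lyve1* cross 0.

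The adhesion genes were next set against other endothelial genes in the same mouse. Those genes did not all move alike with DSS, so that their mean is not a measure of vessel amount. The measure was log2(CPM + 0.5) of a gene minus the mean of log2(CPM + 0.5) of the 19 other endothelial genes with enough counts, among them *Tie1*, *Emcn* and *Egfl7*. Of these 19, 2 reached the filter level in fewer than 3 libraries outside the DSS group. That mean was 2.43 to 2.88 in control, 3.37 to 4.10 in DSS and 2.77 to 2.89 in DSS + EA mice on the log2 scale. With 3 mice against 3, the smallest p of the exact two-sided permutation test is 0.1, so no difference of this kind can pass 0.05, and whether the groups overlap is given instead.

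Relative to these endothelial genes, DSS mice lay above control mice without overlap for 8 of the 9 genes, where 8.15% of all genes tested did so and 59.8% were lower without overlap. The 8 include *Selp*, which passed the count filter through DSS mice. The difference was 4.75 for *Selp*, 3.44 for *Icam1*, 2.39 for *Vcam1* and 1.68 for *Madcam1* on the log2 scale. It was smaller for *Ackr1* (1.26), *Lyve1* (1.01), *Vwf* (0.86) and *Pecam1* (0.57). *Cdh5* overlapped (difference 0.36, exact p = 0.3). With *Pecam1* and *Cdh5* as the reference in place of the 19 genes, *Vwf* (0.39) and *Lyve1* (0.54) overlapped too. The value of *Selp*, which was near 0 in control mice, depended on the 0.5 added to the CPM. With 2 added instead, the difference was 3.45 for *Selp* and 3.02 for *Icam1*.

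Between DSS + EA and DSS mice, this measure separated the genes. *Selp* was lower by 2.52 and *Icam1* by 1.74 on the log2 scale without overlap, and so were *Lyve1*, *Cdh5*, *Ackr1*, *Vwf* and *Pecam1* by 1.01 to 0.60, that is 7 of the 9 genes against 6.59% of all genes tested, while 55.2% were higher without overlap. Among these 7, *Selp* passed the count filter through DSS mice, the group in which it was high. *Vcam1* was 2.65, 1.65 and 2.34 above the endothelial mean in DSS mice 1, 2 and 3, and 2.50, 1.89 and 2.39 in DSS + EA mice. These ranges overlapped, with a difference of 0.05 (exact p = 0.9). *Madcam1* overlapped as well, with means of 0.59 ± 0.24 in DSS and 0.38 ± 0.13 in DSS + EA mice (SD, n = 3 each, exact p = 0.3). Without DSS mouse 1, *Madcam1* was lower without overlap, by 0.31. With *Pecam1* and *Cdh5* as the reference, *Vcam1* of DSS + EA mice was above DSS mice without overlap by 0.81, *Selp* and *Icam1* stayed below, by 1.75 and 0.97, and the other 4 genes overlapped.

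Against control mice, relative levels of DSS + EA mice were higher without overlap for *Vcam1* (2.43), *Selp* (2.23), *Icam1* (1.70) and *Madcam1* (1.47), which is 4 of the 9 genes against 9.48% of all genes tested. With 2 in place of 0.5 added to the CPM, *Selp* (1.19) and *Icam1* (1.31) were higher by less, still without overlap. The 5 vessel markers overlapped, with differences from -0.57 for *Cdh5* to 0.41 for *Ackr1*. *Ackr1* was higher without overlap with *Pecam1* and *Cdh5* as the reference (0.71) and without DSS + EA mouse 2 (0.59).

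**Figure D3:**
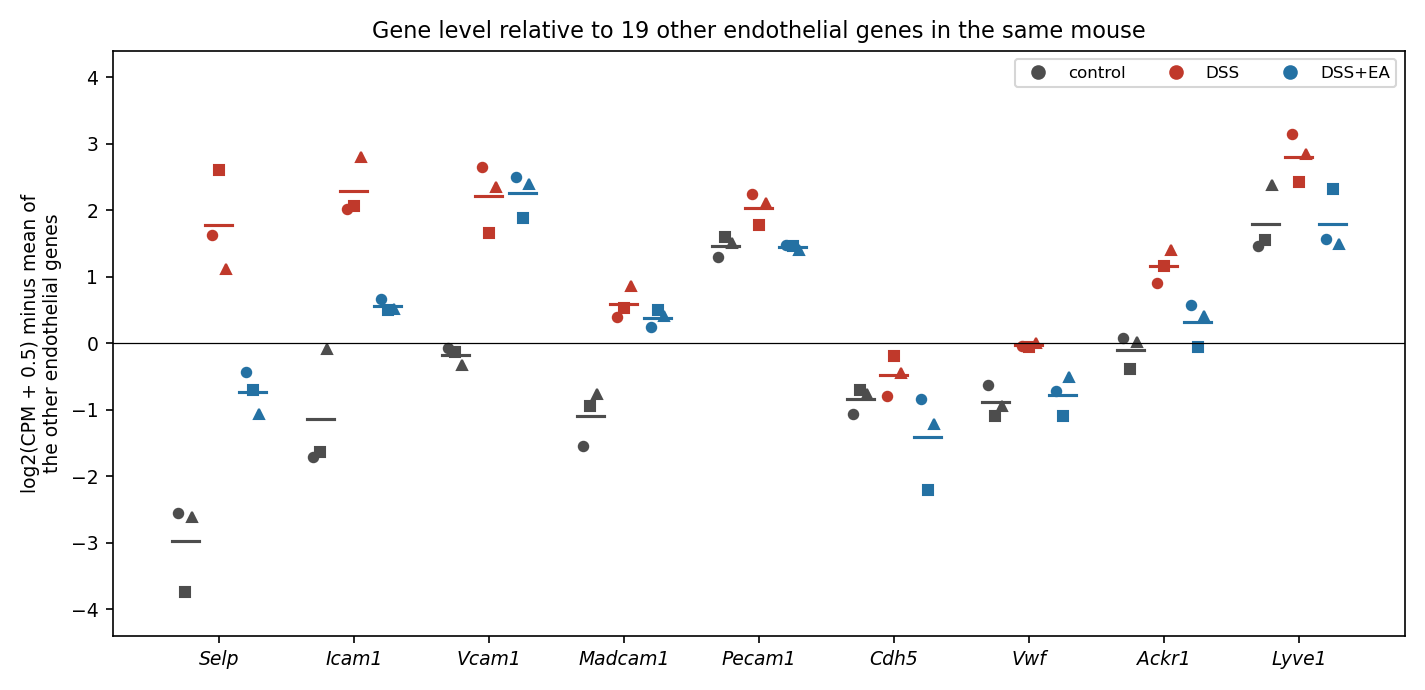
Level of 9 genes relative to the mean of 19 other endothelial genes in the same mouse (log2 scale), with circles, squares and triangles for mice 1, 2 and 3 and a line for the group mean. *Vcam1* has means of 2.21 in DSS and 2.26 in DSS + EA mice, whereas *Icam1* has 2.29 and 0.56.

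Ratios between adhesion genes within a mouse were compared for 3 pairs that were chosen after their values were seen. Each pair set a gene that fell least in DSS + EA mice against a gene that fell most. Separation of the ratios follows from that choice, so they are a description and no p is given. The log2 ratio of *Vcam1* to *Icam1*, taken from log2(CPM + 0.5), was between -0.46 and 0.63 in DSS mice and between 1.39 and 1.88 in DSS + EA mice, with means of -0.08 ± 0.62 and 1.71 ± 0.27 (SD, n = 3 each). The difference was 1.79 and the groups did not overlap. The log2 ratio of *Madcam1* to *Icam1* was likewise higher in DSS + EA mice, at -0.17 ± 0.22 against -1.70 ± 0.21 in DSS mice (SD, n = 3 each). That of *Vcam1* to *Selp* was higher by 2.57. These ratios compare changes and do not compare the amounts of different genes.

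The profiles of the genes over the 9 mice were compared by the root mean square difference of log2 levels after each gene was centred, a description for which no p is given since the mice share the group pattern. *Vwf* and *Ackr1* were closest among the 9 tested genes (0.231), followed by *Pecam1* and *Vwf* (0.289), while *Selp* and *Cdh5* were farthest apart (1.91). *Vcam1* was nearer to *Madcam1* (0.587) than to *Icam1* (0.939) or *Selp* (1.35). Among 11174 other genes searched, the closest to *Ackr1* were *Pim1* (0.172), *S1pr1* (0.173), the sphingosine 1-phosphate receptor of endothelium and lymphocytes, and *Elk3* (0.180). *Vcam1* was closest to *Steap4* (0.262), *Ly6c1* (0.266) and *Lbp* (0.402). For *Selp* the closest were *Mt2* (0.580), *Adamts1* (0.593) and *Sphk1* (0.635), all farther away than the closest genes of the other 8 genes. *Icam1* had *Chl1* (0.345) and *Alpl* (0.376) nearest, *Madcam1* had *Ctps* (0.206) and *Tnfrsf9* (0.220), *Pecam1* had *Fndc3b* (0.130) and *Dnajb4* (0.147), *Cdh5* had *Elmsan1* (0.211) and *Plpp3* (0.232), *Vwf* had *Tbc1d2b* (0.203) and *Adamts2* (0.208), and *Lyve1* had *Galnt18* (0.234) and *Nsg1* (0.249).

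Other genes of the same vessels and pathways were counted by list, beside a median log2 fold change over all genes tested of 0.02 for DSS against control, -0.02 for DSS + EA against DSS and 0.0016 for DSS + EA against control. Some list genes reached the filter level in fewer than 3 libraries outside the DSS group, so that they were tested through DSS mice. These were 2 of 19 endothelial, 2 of 5 lymphatic, 2 of 12 angiogenic and 2 of 12 coagulation and tone genes. The same held for 1 of 6 high endothelial venule genes, 1 of 10 leukocyte partners and 1 of 14 cytokine and NF-kB genes. Of the 19 endothelial genes tested, 11 rose with DSS (median 1.45), against 21.5% of all genes tested, and 9 fell in DSS + EA against DSS mice (median -1.26), against 18.3% of all genes tested. Against control, 0 of the 19 passed the edgeR test and 0 passed DESeq2 (median 0.02), with 2 at an unadjusted p under 0.05. *Ecscr*, an endothelial signalling protein, rose by 1.86 on the log2 scale (edgeR adjusted p = 0.000218), and *Emcn*, the sialomucin of veins and capillaries, by 1.79 (0.000937). Not every endothelial gene moved: the log2 fold change with DSS was 0.05 for *Kdr*, -0.20 for *Cldn5* and -0.07 for *Clec14a*, none of which passed the test. Of 5 lymphatic genes tested, 4 rose with DSS (median 1.25; all genes, 21.5%) and 4 fell in DSS + EA against DSS mice (median -1.65; all genes, 18.3%). *Pdpn*, a mucin-like protein that fibroblasts share, was the gene of that list that stayed above control (log2 fold change 1.75, edgeR adjusted p = 0.00625). *Prox1*, the defining lymphatic factor, had at most 8 counts in a library.

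The list of high endothelial venule genes and enzymes of sulfated selectin ligands had 6 genes tested, of which 1 rose and 2 fell with DSS (median 0.11), where 21.5% of all genes rose and 19.5% fell. In DSS + EA against DSS mice, 3 rose and 2 fell (median 0.25), where 17.2% of all genes rose and 18.3% fell. Against control, 0 passed the edgeR test or DESeq2, with 1 at an unadjusted p under 0.05. *Ccl21a*, a lymphoid chemokine of lymphatic vessels, rose by 1.06 (edgeR adjusted p = 0.00353), whereas *Chst4* fell by 1.57 (0.0208) and *B3gnt3* by 0.98 (0.0284) on the log2 scale. The last 2 encode enzymes that act on glycans and are also made by gut epithelium. *Glycam1*, the mucin of high endothelial venules, had at most 13 counts in a library, and *Fut7* at most 2.

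Of 10 leukocyte partners of the adhesion molecules that were tested, 5 rose and 1 fell with DSS (median 1.49; all genes, 21.5% and 19.5%), and 3 fell in DSS + EA against DSS mice (median -0.89; all genes, 18.3%). Against control, 0 passed the edgeR test, with 2 at an unadjusted p under 0.05, and 1 was higher by DESeq2. *Itgam* and *Itgb2*, the chains of the ICAM-1 receptor Mac-1, rose by 5.76 (edgeR adjusted p = 0.00111) and 4.37 (0.000961) on the log2 scale, and fell by 4.12 (0.00442) and 2.85 (0.00671) in DSS + EA against DSS mice. Of the integrin chains that bind VCAM-1 and MAdCAM-1, *Itgb1*, which many cell types make, rose with DSS by 1.09 on the log2 scale (edgeR adjusted p = 0.0295). *Itga4* (log2 fold change 1.02, edgeR adjusted p = 0.0667) and *Itgb7* (-0.09, 0.928) did not pass.

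Among cytokine and NF-kB genes, which include known inducers of these adhesion molecules, 9 of 14 rose and 1 fell with DSS (median 1.48; all genes, 21.5% and 19.5%). In DSS + EA against DSS mice, 5 fell and 1 rose (median -0.81; all genes, 18.3% and 17.2%). *Irf1* was the gene that went the other way. It fell with DSS by 0.89 (edgeR adjusted p = 0.0149) and rose in DSS + EA against DSS mice by 1.35 (0.00297) on the log2 scale. *Ifng* had at most 3 counts in a library and was not tested. *Nfkbia*, the inhibitor that NF-kB itself induces, rose by 3.46 (edgeR adjusted p = 3.33e-05) and then fell by 2.42 (0.000392) on the log2 scale. *Il1r1*, the interleukin 1 receptor, rose by 3.36 (4.53e-05) and fell by 2.81 (0.000305). *Il1b* had 4, 4 and 8 counts in control, 114, 695 and 864 in DSS, and 436, 74 and 166 in DSS + EA mice. Its DSS + EA mice overlapped the DSS mice (log2 fold change -1.10, edgeR adjusted p = 0.230) and it was above control (5.34, 0.0137). *Tnf* was the other gene of the list called above control in DSS + EA mice (log2 fold change 2.78, edgeR adjusted p = 0.0468).

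Angiogenic genes gave 6 higher and 1 lower of 12 with DSS (median 1.43; all genes, 21.5% and 19.5%) and 6 lower of 12 in DSS + EA against DSS mice (median -0.97; all genes, 18.3%). *Angpt2*, the antagonist of the Tie2 receptor that endothelium releases, rose by 2.79 (edgeR adjusted p = 0.000177) and fell by 2.77 (0.000443), and *Adamts1*, a matrix protease, rose by 5.62 (3.71e-05) and fell by 3.50 (0.000400) on the log2 scale. *Adamts1* was the gene of this list that stayed above control (2.12, edgeR adjusted p = 0.0451). *Vegfa* did not pass with DSS (log2 fold change -0.30, edgeR adjusted p = 0.641). For coagulation and vascular tone, 8 of 12 rose with DSS (median 1.26; all genes, 21.5%), 7 of 12 fell in DSS + EA against DSS mice (median -1.36; all genes, 18.3%) and *Pdpn* alone was above control in the edgeR test. *Ackr3*, a scavenging chemokine receptor, rose by 2.71 (edgeR adjusted p = 0.000125) and fell by 2.67 (0.000359) on the log2 scale.

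With DSS + EA mouse 1 as the only mouse of its group, fewer genes of these lists passed. Against DSS mice, the list genes still called lower by edgeR were *Emcn*, *Pdpn*, *Nfkbia*, *Il1r1*, *Angpt1*, *Angpt2*, *Adamts1*, *Ackr3* and *Plat*. None of the 6 high endothelial venule genes or 10 leukocyte partners was called. Against control mice *Il1b* alone of these lists was called. That fit rests on 1 mouse of the group, so its calls are named and no share is read from them.

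Markers of other cells moved between the same groups, and their part in the vessel gene results was not tested. Of all genes tested, 21.5% rose and 19.5% fell with DSS, and 17.2% rose and 18.3% fell in DSS + EA against DSS mice. The summed level of 12 neutrophil markers was 22.4 to 158 CPM in control, 4508 to 27204 in DSS and 1189 to 1580 in DSS + EA mice, with 9 of 9 tested called higher with DSS. Of those 9, 3 reached the filter level in fewer than 3 libraries outside the DSS group, so that they were tested through the group in which they were high. Within the DSS group the neutrophil sum was lowest in mouse 1, and so were the endothelial, macrophage and fibroblast sums. Mouse 1 was also lowest for *Icam1*, *Madcam1*, *Pecam1*, *Cdh5*, *Vwf*, *Ackr1* and *Lyve1*. *Vcam1* was lowest in DSS mouse 2, and *Selp* and *Sele* were lowest in DSS mouse 3. Of the 9 neutrophil genes tested, 7 were lower in DSS + EA than in DSS mice and 5 were above control. Over all genes tested, 3% were called higher in DSS + EA than in control mice. Of 9 macrophage markers, 8 rose with DSS and 7 fell in DSS + EA mice, and the sum went from 200.2 to 228 CPM in control to 897 to 1331 in DSS and 533 to 592 in DSS + EA mice. *C1qa*, *C1qb* and *C1qc* were called above control in DSS + EA mice. Fibroblast markers summed to 683 to 756 CPM in control, 3782 to 6387 in DSS and 1460 to 1552 in DSS + EA mice, with all 6 called higher with DSS and 4 lower in DSS + EA mice. *Col1a1* and *Dcn* were called above control in DSS + EA mice. With DSS + EA mouse 1 alone, no macrophage or fibroblast gene was called above control by edgeR, while some neutrophil genes were.

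For the lists that follow, the shares of all genes tested were 21.5% higher and 19.5% lower with DSS. They were 17.2% higher and 18.3% lower in DSS + EA against DSS mice, and 3% higher in DSS + EA against control mice. Platelets carry *Selp*, *Pecam1* and *Vwf* too. Of the genes tested in these lists, 2 platelet, 1 erythroid, 1 pericyte and 1 lymphocyte gene reached the filter level in fewer than 3 libraries outside the DSS group. Of 12 platelet markers, 3 had enough counts, 1 of them rose with DSS and 3 fell in DSS + EA mice. The sum of 339 to 1035 CPM in DSS mice, against 46.5 to 60.5 in control and 33.7 to 72.6 in DSS + EA mice, was mostly *Pf4*, with 1022, 2996 and 3278 counts in DSS mice. *Tubb1* had no count in any mouse, and *Gp1ba*, *Gp6* and *Treml1* at most 2, whereas *Ppbp*, a platelet chemokine, had 1, 16 and 20 counts in DSS mice, 0 in control mice and at most 1 in DSS + EA mice. *Itga2b*, the platelet integrin chain, was 1.23 higher with DSS on the log2 scale and did not pass (edgeR adjusted p = 0.0505). Of 4 erythroid genes tested, all 4 rose with DSS and fell in DSS + EA mice, with sums of 95.4 to 117 CPM in control, 1423 to 3789 in DSS and 144 to 212 in DSS + EA mice. Of 7 pericyte genes, 4 rose and 1 fell with DSS and 5 fell in DSS + EA against DSS mice, and *Kcnj8*, a potassium channel subunit of pericytes, rose by 3.24 on the log2 scale (edgeR adjusted p = 1.71e-05) and stayed above control in DSS + EA mice (1.52, 0.00584). Of 5 lymphocyte genes, 0 passed the edgeR test or DESeq2 with DSS, with 1 at an unadjusted p under 0.05, and 2 rose in DSS + EA against DSS mice. Adipocyte genes gave 1 higher and 2 lower of 3 with DSS, and 1 lower in DSS + EA against DSS mice. The 9 epithelial genes gave 6 lower with DSS and 4 higher in DSS + EA against DSS mice. Of the 12 pancreatic genes, all 12 were higher in DSS + EA than in DSS mice and 11 higher than in control mice. With DSS + EA mouse 1 alone, most of the 12 pancreatic genes stayed called higher in both comparisons. Some genes of the platelet (*Pf4*), pericyte (*Kcnj8*), macrophage, fibroblast, erythroid and neutrophil lists were still called lower than in DSS mice by edgeR. In that fit *Kcnj8* was not called above control.

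**Figure D4:**
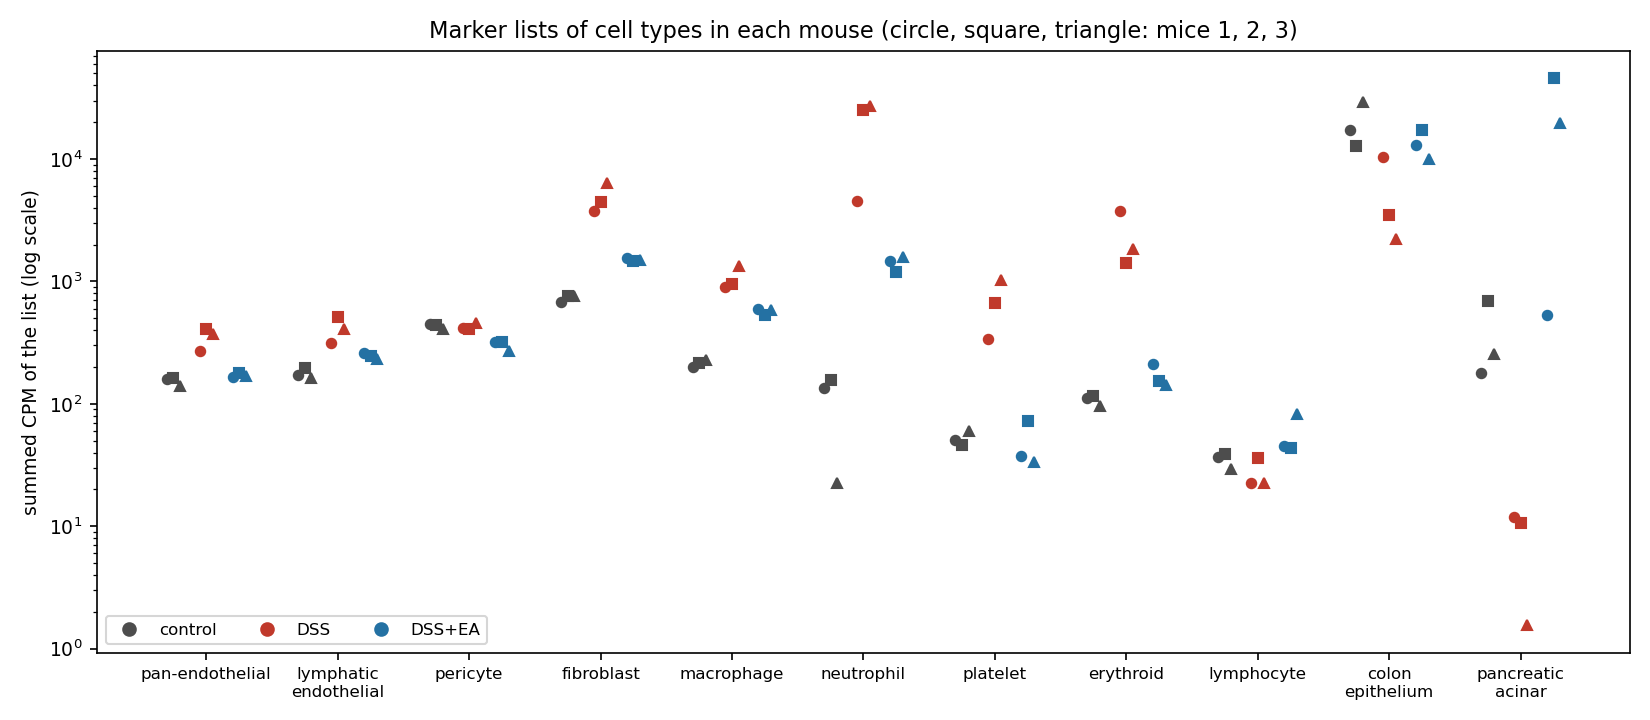
Summed level (CPM, log axis) of marker lists in each mouse, with circles, squares and triangles for mice 1, 2 and 3. The 22 endothelial genes sum to 139 to 164 CPM in control, 269 to 411 in DSS and 167 to 179 in DSS + EA mice, and the neutrophil list spans the widest range of the cell types found in colon.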

How the data were processed

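Colon RNA of 9 mice was sequenced as PCR-amplified full-length cDNA on an Oxford Nanopore PromethION. Per gene, the authors deposited raw read counts in whole numbers. The build was mm10 per the submitters' processing notes. The aligner, counting tool, annotation and use of strand are not given in the sources used here, so that reads of overlapping or near-identical genes could have been divided in the counts. Of 27733 lines, 14 without counts were skipped, and 5620 of 27719 genes had no count. Columns were assigned to mice by name. Positions came from GENCODE M21, matched by Ensembl identifier.

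Tests used edgeR 4.0.16 under R 4.3.3 (TMM scaling, filterByExpr by group, prior count 0.125, quasi-likelihood F test) in 1 fit over the 9 libraries, with Benjamini-Hochberg adjustment over 12566 genes and calls at an adjusted p under 0.05. The labels describe the 3 libraries of a group as separate samples, and where nothing says that they were bred or treated apart, p-values measure the spread between these samples. The genes and the 17 gene lists were chosen with earlier results of these data known. All 10 genes were named. Of each list, up to 4 genes with the smallest P in DSS against control were to be named, and some of these are not reported here. *Kdr*, *Cldn5*, *Clec14a*, *Prox1*, *Glycam1*, *Fut7*, *Itga4*, *Itgb1*, *Itgb7*, *Tnf*, *Irf1*, *Ifng*, *Vegfa*, *C1qb*, *Epcam*, *Gp1ba*, *Gp6*, *Treml1*, *Tubb1* and *Ppbp* are given besides these, and were chosen after their values were seen. Levels relative to other endothelial genes were tested by exact permutation over mice, with a pseudocount of 0.5 CPM. Promoter windows came from RefSeq (GRCm38.p6). Alternatives were DESeq2 1.42.0, RLE scaling, library totals, no count filter, a mean of at least 20 counts, a prior count of 2, fits of 2 groups, a replicate block, other thresholds, each mouse left out, another reference or pseudocount, and, chosen after seeing the data, removal of pancreatic genes and DSS + EA mouse 1 alone. Scripts were tested on simulated data. With 3 mice per group and totals of 2627695 to 4235576 counts, genes that had no 3 libraries at about 10 counts stayed out of the main test.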

Additional observations from a re-analysis of the deposited data

How the results depend on the processing

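The study thresholds (absolute log2 fold change over 2.5 and P under 0.01) in place of an adjusted p under 0.05 gave 1280 instead of 5145 genes for DSS against control, 806 instead of 4457 for DSS + EA against DSS and 261 instead of 457 for DSS + EA against control, with 4, 2 and 2 of the 10 genes called instead of 9, 9 and 3. An adjusted p under 0.01 gave 2946, 2107 and 127 genes, with 8, 7 and 1 of the 10 genes. For DSS + EA against control, DESeq2 called 702 genes and the fit of these groups alone 1147. Without a mouse, 107 to 772 genes were called in that comparison, the fewest without control mouse 1 and the most without DSS mouse 1, and 1 to 3 of the 10 genes. The count was 1 without control mouse 1 or 2 or DSS + EA mouse 2 or 3. With DSS + EA mouse 1 alone, 807 genes were called against DSS and 54 against control, and 2 and 1 of the 10 genes, in a fit with fewer samples. With *Pecam1* and *Cdh5* as the reference, 1 gene of 7 was higher and 2 were lower in DSS + EA than in DSS mice without overlap, instead of 0 and 5. The relative difference of *Vwf* went from -0.75 to 0.0159, with overlap (the cause was not tested). On the strand of the gene only, GGNNNTTCC was in 10.2% and AGGAAG in 19.98% of promoter windows.

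Replicate numbers did not pair the mice: deviations of same-numbered mice correlated between -0.159 and 0.103 over 9 pairs, others between -0.203 and 0.252. With the replicate block, 4543, 3826 and 363 genes were called and 9, 9 and 3 of the 10 genes. RLE scaling, library totals, no count filter, a mean of at least 20 counts and a prior count of 2 kept the counts over all genes and over the 10 genes within 1.5 times the main ones, but library totals and the mean of 20 counts each ended the call of *Icam1* against control (edgeR adjusted p = 0.0584 and 0.0577), which left 2 of the 10 genes. *Sele*, at 0 to 14 counts, and *Cdh5*, at 3 to 67, are limited most by depth.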
